A study of Homo sapiens with 8 samples.

Results

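The genes for CTCF and for 9 cohesin proteins (RAD21, SMC1A, SMC3, STAG1, STAG2, WAPL, NIPBL, PDS5A and PDS5B) were examined for binding of the transcription factor Sp1 and of CTCF itself. These 10 of 19970 protein-coding genes were chosen by name. Peaks were assigned to a gene when the summit, the position of highest signal in a peak, lay in the gene or within 5 kb of it. Binding was measured by chromatin immunoprecipitation followed by sequencing (ChIP-seq), in which crosslinked chromatin is pulled down with an antibody and the recovered DNA is sequenced. All 8 libraries came from U-2 OS, a human osteosarcoma cell line, after 6 min in 1% formaldehyde. In a line with V5 and Halo tags at the endogenous SP1 gene, Sp1 was pulled down with 2 rabbit antibodies (antibody 1 and antibody 2, 1 library each), next to 1 normal rabbit IgG library and 1 input. Clone C32, which carries FLAG and Halo tags in the endogenous CTCF gene, gave CTCF replicates 1 and 2, each with an input. No group received a drug. The titles call the Sp1 cells parental, and the series design names unmodified cells for CTCF; the genotype labels were followed. Each line is a single engineered line, and the Sp1 and CTCF libraries also differed in sequencing platform, so the antibody target, the line and the sequencing run cannot be told apart.

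Cohesin is a ring that holds DNA. SMC1A and SMC3 form its long coiled arms, RAD21 closes the ring, and STAG1 or STAG2 binds RAD21 as alternative partners. NIPBL loads cohesin and stimulates loop extrusion, WAPL releases cohesin from chromatin, and PDS5A and PDS5B bind the ring and regulate its residence and acetylation. CTCF is a zinc finger protein that binds a long asymmetric DNA motif and halts extruding cohesin, chiefly where the motif faces the oncoming ring. Sp1 is a zinc finger activator that binds GC boxes in the promoters of many housekeeping genes.

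The 5 peak lists held 8706 peaks for Sp1 antibody 1, 5973 for antibody 2, 42765 and 36082 for CTCF replicates 1 and 2, and 106 for IgG. Each peak has a fold enrichment over control, a linear ratio as the authors' peak caller gave it, and a −log10 q. The median fold was 7.72, 6.75, 27.5, 20.0 and 1.91 in these lists. The lists carry no read counts, so depth is unknown from them. Values within a list share a scale, and folds of different antibodies were set side by side without a test.

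At the 10 genes, the Sp1 peaks all lay at promoters, whereas CTCF peaks lay both at promoters and elsewhere in or near the genes. How many of all Sp1 peaks in the lists lie at promoters was not counted. Peaks were called promoter peaks when the summit was no more than 1 kb from any transcript start of the gene in GENCODE release 44 (hg38). Antibody 1 gave 6 peaks, all at promoters and each in a different gene: CTCF, RAD21, SMC1A, SMC3, STAG1 and NIPBL. Antibody 2 gave 2 promoter peaks, in SMC1A and NIPBL. CTCF replicate 1 gave 21 peaks in 9 genes and replicate 2 gave 20 in 8 genes. The IgG library gave 0 peaks in any of the 10 gene windows, and 0.0801% of all protein-coding genes had one.

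**Figure D1:**
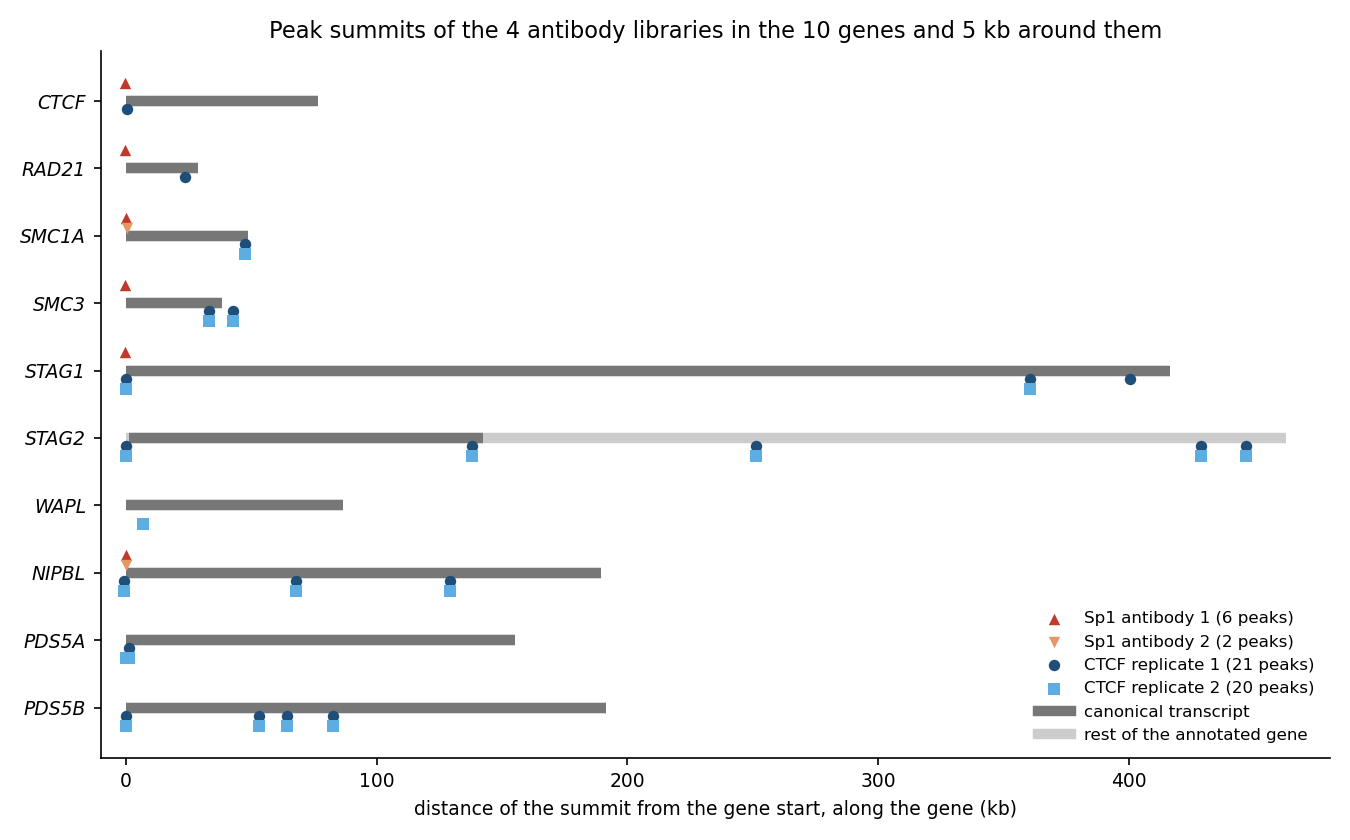
Position of each peak summit (x axis, kb from the gene start along the gene) for the 10 genes (rows), with 1 symbol per peak and library and bars for the gene and its canonical transcript. The 6 and 2 Sp1 summits sit at the left end of their genes, and CTCF summits are found both there and up to 447 kb from the start, in STAG2.

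Against all protein-coding genes, the promoter counts of so few genes carried wide intervals. Antibody 1 marked 6 of 10 member promoters, with a 95% Wilson interval of 31.3% to 83.2%, and 37.5% of all protein-coding genes. Antibody 2 marked 2 of 10, with an interval of 5.67% to 51.0%, and 24.2% of all genes. Both antibodies marked the same 2 of 10, compared with 21.2% of all genes. A CTCF promoter site present in both replicates was found in 5 of 10 (23.7% to 76.3%), namely STAG1, STAG2, NIPBL, PDS5A and PDS5B, and in 24.3% of all genes. These intervals, which cover counting error only, each contained the genome-wide share. For promoter peaks of CTCF replicate 1 alone the count was 7 of 10 (39.7% to 89.2%), with CTCF and RAD21 added. The 32.5% of all genes lay outside that interval, and the RAD21 peak was at an internal start. For replicate 2 alone the count was 5 of 10 (23.7% to 76.3%), and the 24.9% of all genes lay inside. These shares were not matched for the number of annotated starts, which was 17 in CTCF and 18 in RAD21.

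**Figure D2:**
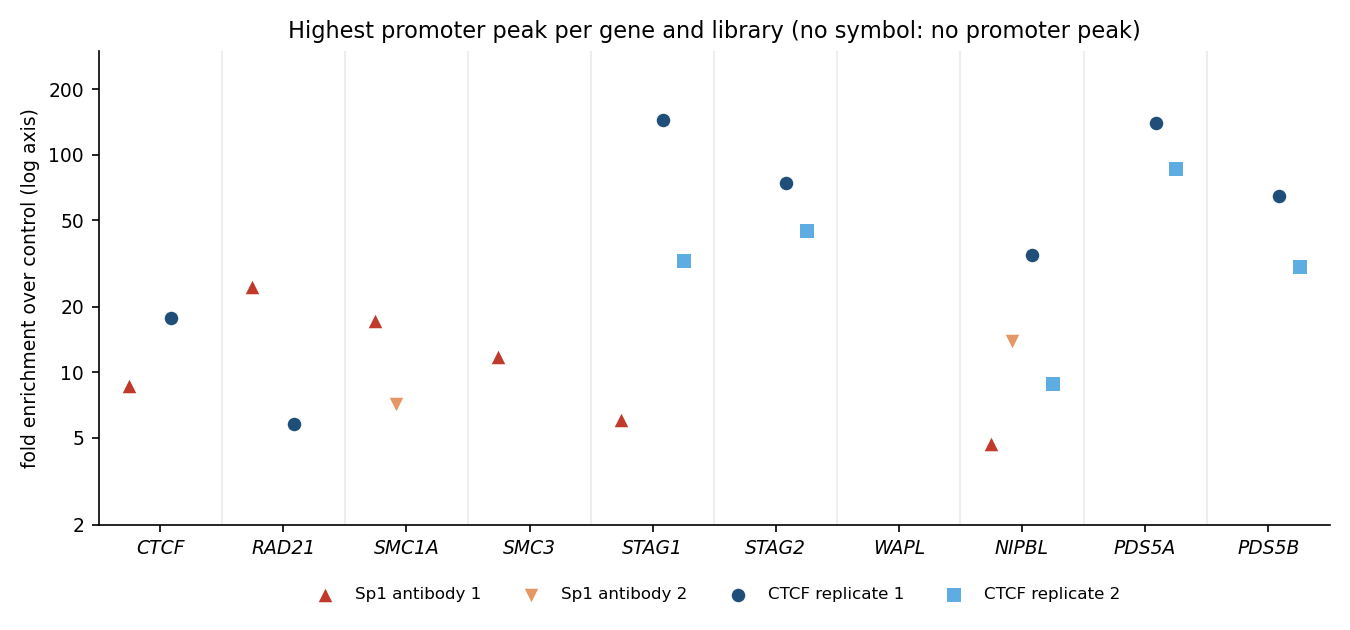
Fold enrichment over control (y axis, log scale) of the highest promoter peak in each of the 10 genes (x axis), with 1 symbol per library and none where no promoter peak was listed. Sp1 antibody 1 ran from 4.67 in NIPBL to 24.6 in RAD21, CTCF, RAD21, STAG1 and NIPBL had symbols of both factors (in CTCF and RAD21 from CTCF replicate 1 alone), and WAPL had none. The CTCF symbols of RAD21 and PDS5A lie at internal starts.

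Sp1 antibody 1 was listed at the promoters of all 3 ring subunits. RAD21, at chr8:116845934-116874776 on the minus strand, had the strongest Sp1 peak of the 10 genes. The antibody 1 peak at chr8:116874544-116875271 had a fold of 24.6 and a −log10 q of 83.5, and its fold exceeded that of 94.5% of peaks in the list. The summit lay 121 bp before the RAD21 start, within the antisense transcript RAD21-AS1 and 97 bp from the start of the microRNA gene MIR3610. Antibody 2 listed no peak in the RAD21 window. Among all antibody 1 peaks, 49.2% were overlapped by an antibody 2 peak, and among the strongest 10% (873 peaks) the share was 80.5%. RAD21 was therefore in the minority of strong antibody 1 peaks without a counterpart.

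SMC1A, at chrX:53374149-53422728 on the minus strand, had peaks of both antibodies. Antibody 1 gave a fold of 17.3 (−log10 q 42.1) with the summit 25 bp inside the gene, and antibody 2 gave 7.13 (−log10 q 9.63) with the summit 370 bp inside it, in intron 1. The intervals overlapped, but the summits were 345 bp apart. The antibody 1 summit was also 13 bp from the start of RIBC1, which is transcribed the other way, so the peak cannot be assigned to 1 of these genes.

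SMC3, at chr10:110567684-110606048 on the plus strand, had an antibody 1 peak at chr10:110567194-110567989 with a fold of 11.7 and a −log10 q of 29.3. Its summit was 157 bp before the gene start, and antibody 2 listed none. The 151 bases centred on this summit are shown because they hold no GC box, searched as the word GGGCGG on both strands. None was found up to 100 bp from the summit either, a window in which 68.4% of all antibody 1 peaks held one. Each of the other antibody 1 peaks at the members held at least 1 in that window, with 2 at RAD21.
SMC3 (chr10:110567452-110567602, hg38, plus strand): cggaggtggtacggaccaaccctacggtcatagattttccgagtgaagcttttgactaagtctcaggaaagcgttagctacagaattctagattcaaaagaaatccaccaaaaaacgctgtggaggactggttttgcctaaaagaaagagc
The 300 bases of the SMC3 promoter in RefSeq (GRCh38.p14), which run closer to the start, held 1 GC box. These bases, chr10:110567445-110567744, lie inside the antibody 1 peak, so the peak itself does not lack a GC box.

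The promoters of CTCF and STAG1 had modest Sp1 peaks with several GC boxes near the summit. CTCF, at chr16:67562467-67639177 on the plus strand, had an antibody 1 peak with a fold of 8.65 (−log10 q 14.7). Its summit was 487 bp before the gene start, in the divergent long noncoding RNA gene CTCF-DT. STAG1, at chr3:136336236-136752403 on the minus strand, had an antibody 1 peak with a fold of 6.04 (−log10 q 7.02), 269 bp before the gene start and 42 bp from the start of the divergent STAG1-DT. Within 100 bp of the summit CTCF held 4 GC boxes and STAG1 held 3. The inner 151 bases of each follow, read along the gene, with GC boxes in capitals on either strand; in STAG1 the capitals also mark TCGCGAGA, a word found in some promoters, read here as its reverse complement. That word lay within 100 bp of 3.28% of antibody 1 summits and 1.33% of antibody 2 summits.
CTCF (chr16:67561905-67562055, hg38, plus strand): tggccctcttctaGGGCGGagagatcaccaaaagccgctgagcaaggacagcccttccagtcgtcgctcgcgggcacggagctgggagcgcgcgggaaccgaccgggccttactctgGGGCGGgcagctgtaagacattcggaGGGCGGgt
STAG1 (chr3:136752597-136752747, hg38, minus strand): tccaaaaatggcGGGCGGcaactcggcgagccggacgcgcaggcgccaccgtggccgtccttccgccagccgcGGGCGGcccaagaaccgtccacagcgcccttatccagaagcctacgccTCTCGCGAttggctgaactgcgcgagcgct

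NIPBL, at chr5:36876769-37066413 on the plus strand, was the gene where antibody 2 exceeded antibody 1. Antibody 1 gave a fold of 4.67 (−log10 q 4.27) 56 bp past the start and antibody 2 gave 13.9 (−log10 q 33.1) 5 bp past it. On the log2 scale antibody 2 was higher by 1.58, above 92.8% of the 4281 overlapping Sp1 pairs, whose median difference was −0.64 (SD 1.22). At SMC1A the same difference was −1.28, above 17.8% of pairs. With 1 library per antibody, neither value has a replicate. Within 100 bp of the antibody 1 summit, SMC1A and NIPBL each held 1 GC box, centred 65 bp from the summit in SMC1A and 6 bp from it in NIPBL. SMC1A also held TCGCGAGA, 8 bp from the summit. Both genes held CCGGAA, the core of sites bound by ETS factors, which in NIPBL lay 64 bp from the summit. The 30 bases around each, except the CCGGAA of SMC1A, are shown to set the GC box beside the other words. They are read along the gene, with the reverse complement of the word in capitals. CCGGAA was held by 21.2% of antibody 1 and 26.8% of antibody 2 summit windows. The distances above are from antibody 1 summits. The antibody 2 summit of NIPBL, at chr5:36876774, lay within the 30 bases shown for CCGGAA and outside those shown for its GC box.
SMC1A, GC box (chrX:53422753-53422782, hg38, minus strand): caacatcagtccCCGCCCctggtcccactc
SMC1A, TCGCGAGA (chrX:53422696-53422725, hg38, minus strand): cctggacgtatTCTCGCGAcatttgccggt
NIPBL, GC box (chr5:36876816-36876845, hg38, plus strand): ggctccttccccCCGCCCtcccccccctcc
NIPBL, CCGGAA (chr5:36876746-36876775, hg38, plus strand): ctgcagctgcacTTCCGGtcggcattttgt

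The remaining 4 genes, STAG2, WAPL, PDS5A and PDS5B, had no Sp1 peak of either antibody in the window. The nearest antibody 1 summit outside it was 79.9 kb from PDS5A, 271 kb from PDS5B, 439 kb from WAPL and 3399 kb from STAG2. For antibody 2 these distances were 184 kb, 47.6 kb, 983 kb and 3715 kb in the same order of genes. GC boxes were also counted in promoters, and a link to the Sp1 peaks was not tested. In the 300-base RefSeq promoters, found for 9 of the 10 genes, STAG2 held 2 GC boxes, WAPL 1, PDS5A 1 and PDS5B 3, while CTCF held 2, SMC1A 3, SMC3 1, STAG1 3 and NIPBL 1. All 9 promoters held at least 1, compared with 56.8% of 21571 promoters in the table. These stretches held the antibody 1 summit in SMC1A and SMC3, but not in CTCF, STAG1 or NIPBL. The RefSeq start of STAG2 lies 1846 bp from the first GENCODE start, so its window is another stretch of DNA than the CTCF promoter site described below. A match to these letters is a description and not evidence of a bound site.

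CTCF sites were taken as shared when a replicate 1 peak overlapped a replicate 2 peak by at least 1 bp. The 10 windows held 18 shared sites in 7 genes, 5 of them at promoters and 13 elsewhere. Across chromosomes 1 to 22 and X, 7046 of 33936 shared sites lay within 1 kb of a start of any gene. Of all protein-coding genes, 61.1% had at least 1 shared site in their window. The presence of a site was split by window length. All 5 members with windows over 100 kb held a shared site, as did 87.1% of all such genes, and 2 of the 5 shorter members did, compared with 54.6% of shorter genes. The density was 1.00 shared sites per 100 kb of member windows, 1.43 over the windows of all protein-coding genes and 1.12 over chromosomes 1 to 22 and X. Of the 21 member peaks of replicate 1, 18 were overlapped in replicate 2 (79.8% of all replicate 1 peaks), and 19 of 20 were overlapped in the other direction (95.4% of all replicate 2 peaks). Over the 18 shared sites the −log10 q ran from 14.1 to 1217 in replicate 1 and from 5.38 to 661 in replicate 2, lowest at SMC1A and highest at PDS5A.

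Among the ring subunits, SMC3 carried the strongest CTCF sites and none lay within 1 kb of a start. A site in intron 22 of 28 had folds of 44.3 and 26.5 in replicates 1 and 2, and the site at chr10:110609609-110610877, whose summit was 4.44 kb past the end of the gene, had 113 and 51.0. SMC1A had 1 site in its last exon, exon 25 of 25, in the 3′ untranslated part, with low folds of 7.23 and 4.29. RAD21 had no shared site. Its replicate 1 peak of 5.78, in intron 11 of the canonical transcript and exonic in 6 others, lay 460 bp from an internal start and 23.4 kb from the gene start, and replicate 2 listed none there, although a match to the CTCF matrix described later lay within 50 bp of the summit. The nearest shared site, 12.9 kb upstream of RAD21, had folds of 86.7 and 88.9.

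Both genes for the alternative STAG subunits carried promoter CTCF sites. The STAG1 site at chr3:136752093-136752727 had a fold of 145 in replicate 1 and 32.6 in replicate 2, with the replicate 1 summit 4 bp before the gene start. The Sp1 antibody 1 summit was 265 bp away, and the intervals overlapped by 160 bp. A further STAG1 site in intron 22 of 33 had nearly equal folds of 37.3 and 36.1. The STAG2 promoter site at chrX:123960135-123960746 had folds of 73.8 and 44.7. Its summit was 44 bp from a transcript start, but 1.23 kb before the start of the canonical transcript.

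Of the other 4 shared sites of STAG2, 3 depended on the gene model. The GENCODE gene spans 462 kb because some transcripts run 320 kb past the end of the canonical transcript. The site in intron 34 of 34, with folds of 12.7 and 6.56, lay within that transcript. The sites beyond it lay 109 kb, 286 kb and 304 kb past its end, with folds of 22.3 and 10.9, 24.0 and 19.2, and 24.6 and 16.9, and the last pair of sites lay inside the neighbouring gene TENM1. With canonical transcripts in place of annotated genes, the 10 windows held 15 shared sites.

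NIPBL, PDS5A and PDS5B also had promoter CTCF sites, and WAPL had no shared site at all. In NIPBL the folds were 34.7 and 8.81 for a summit 752 bp before the start, in the divergent NIPBL-DT, 808 bp from the antibody 1 Sp1 summit with no overlap of the intervals. The intronic NIPBL sites had 30.5 and 22.02 in intron 1 and 27.6 and 15.9 in intron 16. In PDS5A the only shared site, at chr4:39976281-39978407, was among the strongest, with folds of 140 and 86.0 above 93.4% and 95.5% of the peaks in the respective lists. Its summit fell in untranslated exon 2, 1342 bp inside the gene and 896 bp from an internal start. This replicate 1 peak of 2127 bp covered a second replicate 2 peak of fold 16.3, 73 bp before the PDS5A start.

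PDS5B had 4 shared sites in its first part. The promoter site, 74 bp before the start, had folds of 64.8 and 30.5, and the sites in introns 1, 2 and 7 had 46.3 and 22.7, 50.6 and 23.8, and 32.7 and 12.9. In WAPL a single replicate 2 peak in intron 2 had a fold of 2.604 and a −log10 q of 1.36, near the end of that list, and the nearest shared site was 33.97 kb past the gene, with folds of 6.83 and 3.94. CTCF itself had no shared site. Replicate 1 listed a peak 323 bp past the CTCF start, in intron 1, with a fold of 17.7 and a −log10 q of 71.6, which replicate 2 lacked. The cells of both CTCF libraries carry the tag in this gene. The nearest shared site, with folds of 28.4 and 6.90, was 5.68 kb past the gene end, just outside the window. At the 5 kb limit itself, the SMC3 site at 4.44 kb was the outermost inside and a site 5.07 kb from PDS5B, with folds of 21.99 and 9.34, was the nearest outside.

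The order of the promoter sites by fold was in part the same in both replicates. PDS5A, STAG2, PDS5B and NIPBL fell in this order in each. STAG1 was first in replicate 1 and came after PDS5A and STAG2 in replicate 2, so it was above PDS5B and NIPBL in both, while its order against PDS5A and STAG2 differed between the 2 libraries. Replicate 2 was lower at all 18 shared sites. The median log2 ratio of replicate 2 to replicate 1 was −0.88 (SD 0.52, n = 18 sites), and over all 34125 shared sites it was −0.89 (SD 0.46). STAG1 and NIPBL were far below it at their promoters, with ratios of −2.15 and −1.98 that were lower than those of all but 0.53% and 1.39% of shared sites. The STAG1 intron site was at the other end, with −0.05, above 96.7% of sites.

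**Figure D3:**
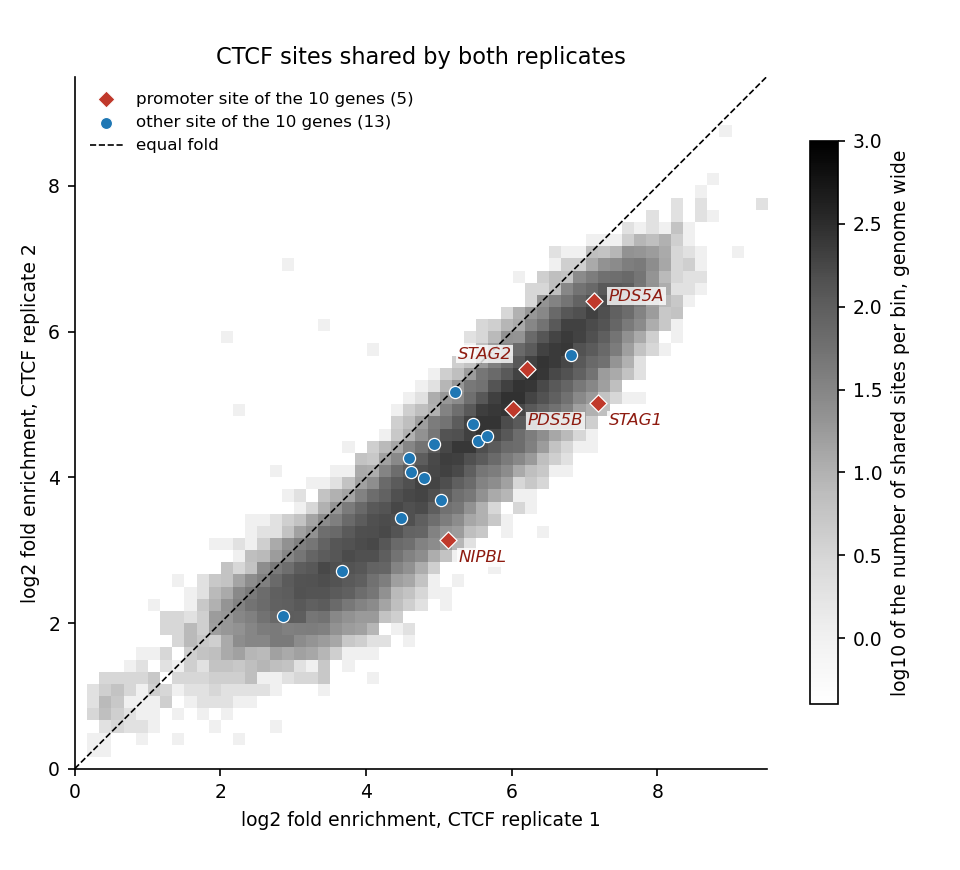
Log2 fold enrichment of CTCF in replicate 1 (x axis) and replicate 2 (y axis) at shared sites, with grey bins for the number of sites genome wide, diamonds for the 5 member promoter sites and circles for the other 13. All 18 lie below the line of equal fold, and the STAG1 and NIPBL promoters lie at the lower edge of the cloud.

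STAG1 and NIPBL were also the only genes of the 5 with an Sp1 peak at the promoter. Across the genome, the log2 ratio had a median of −0.94 (SD 0.50, n = 1633) at CTCF promoter sites with an antibody 1 summit within 1 kb and of −0.93 (SD 0.49, n = 5413) at those without. Ratios as low as at NIPBL made up 2.51% and 2.31% of these sites. The Sp1 peaks were measured in the other line, and a link between them and the replicate ratio was not tested.

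The CTCF motif was sought within 50 bp of each replicate 1 summit with a 19-base weight matrix learnt from shared sites outside the 10 windows, at a score that 1.00% of windows 500 bp away passed. It was found at 14 of 18 member sites (77.8%, Wilson interval 54.8% to 91.0%) and at 67.3% of all shared sites. All 13 sites away from promoters held it, compared with 70.5% of all such sites, and 1 of 5 promoter sites did, compared with 54.7%. The promoter count depended on the matrix. After the matrix was refitted on its own best matches, a step added after the data had been seen, 3 of 5 promoter sites and again all 13 others passed, compared with 68.1% and 82.5% of all shared sites of each kind. The matches at the STAG2 and PDS5B promoters were gained, and the NIPBL and PDS5A promoter sites passed neither matrix.

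The matched bases are shown for the strongest site of each gene that had one, with those of the STAG2 and PDS5B promoters, to let the promoter and distal matches be compared. Each is read along the motif, with the 12-base core in capitals. Where a strand is given, it is that of the motif on hg38.
SMC1A, last exon (chrX:53375162-53375180, plus strand): tttCCAGAAGGGGGCagtg
SMC3, past the gene end (chr10:110610463-110610481, plus strand): gagCCACTAGAGGGGgccc
STAG1, promoter (chr3:136752403-136752421, minus strand): cggCCAGCAGAGGGCggtc
STAG1, intron 22 (chr3:136391796-136391814, plus strand): ccaGCACTAGGGGGCactg
STAG2, 286 kb past the canonical end (chrX:124388758-124388776, plus strand): tgaCCACCAGATGGCagtg
NIPBL, intron 1 (chr5:36944795-36944813, minus strand): agtCCACAAGAGGGCacac
PDS5B, intron 2 (chr13:32650924-32650942, minus strand): catCCACTAGGTGGTgctg
STAG2, promoter, refitted matrix only: ctgCCGCTAGATGCCgctc
PDS5B, promoter, refitted matrix only: tggTCGGCAGGGGGCgctg

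The strands of neighbouring motifs are given for each gene, without a genome-wide share of neighbours on the same strand beside them. The 4 STAG2 sites past the promoter all read along the gene, over distances of 113, 177 and 18.1 kb between neighbours. The 3 intronic PDS5B motifs and the 2 intronic NIPBL motifs all read against the gene. In STAG1 the intron 22 and promoter motifs, 361 kb apart, faced each other, and in SMC3 the 2 motifs, 9.79 kb apart, pointed away from each other. With the matrix before refitting, 6 motifs read along and 8 against their gene. The matches gained at the STAG2 and PDS5B promoters after refitting lay on the plus strand and read along their genes. Sites of 1 gene are not replicates, and no chromatin contacts were measured here.

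Sp1 promoter peaks were also listed for other genes of the same machinery. Among 13 further cohesin genes (such as the acetyltransferase ESCO1 and the deacetylase HDAC8, which act on SMC3), 8 had an antibody 1 promoter peak, 7 an antibody 2 peak and 6 both, beside 37.5%, 24.2% and 21.2% of all genes. The list of 13 also held CTCFL, a relative of CTCF and not a cohesin gene. HDAC8 had the highest fold of this list with antibody 2, 64.4, but no promoter peak with antibody 1. STAG3, the meiotic STAG subunit, had the highest with antibody 1, 23.6. Each of these peaks lay within 2 kb of the start of another gene, GPC2 at STAG3 and a gene without a symbol at HDAC8. Among 10 genes of the related condensin and SMC5/6 complexes, 9 had an antibody 1 peak and 4 an antibody 2 peak. Differences between the lists were not tested. The condensin gene NCAPG had a fold of 80.8 with antibody 1 and 4.79 with antibody 2, within 2 kb of a start of DCAF16. For NCAPD2 the folds were 16.1 and 37.6, within 2 kb of a start of MRPL51.

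**Figure D4:**
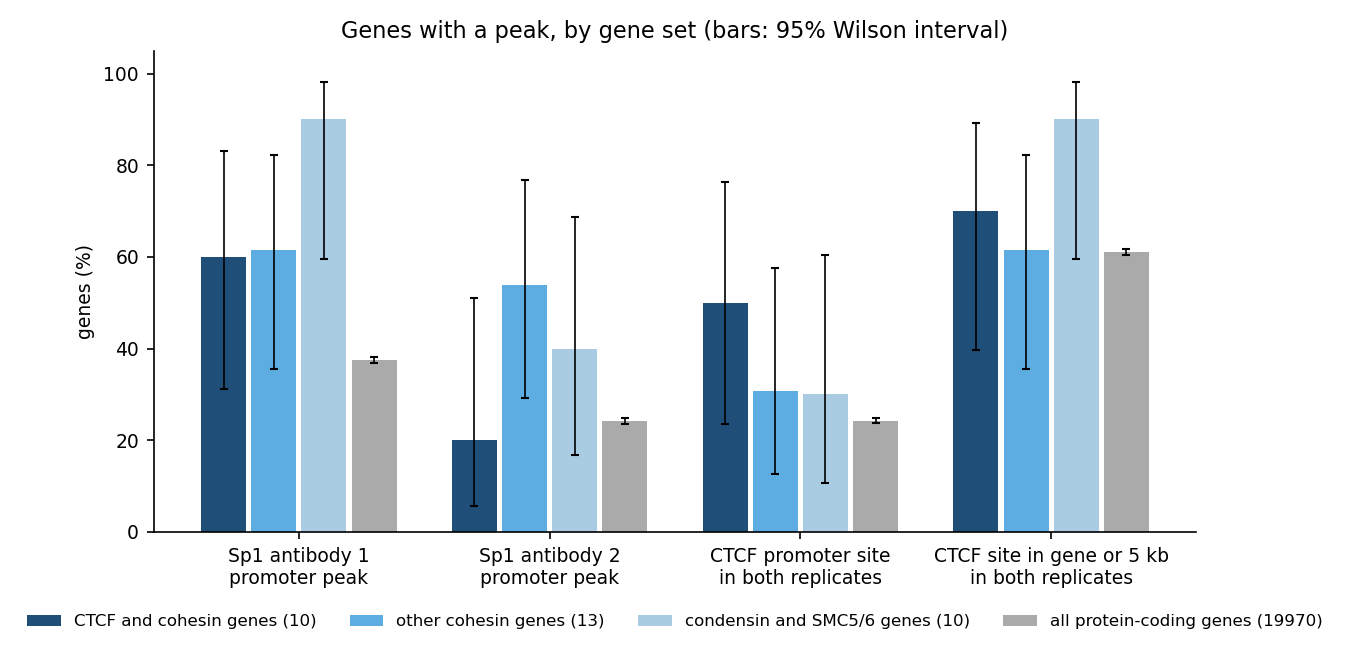
Percent of genes (y axis) with a promoter peak of either Sp1 antibody, a shared CTCF promoter site or a shared CTCF site in the gene window, for the 10 genes, 2 related lists and all 19970 protein-coding genes. Error bars are 95% Wilson intervals. The intervals of the 3 short lists overlap in all 4 comparisons. For antibody 1 the 37.5% of all genes lies below the condensin and SMC5/6 interval (59.6% to 98.2%). For antibody 2 the 24.2% of all genes lies below the interval of the other cohesin genes (29.1% to 76.8%). The remaining intervals of the short lists contain the share of all genes.

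A shared CTCF promoter site was found in 4 of the 13 further cohesin genes and in 3 of the 10 condensin and SMC5/6 genes, beside 5 of the 10 CTCF and cohesin genes and 24.3% of all genes. The strongest was at ESCO1, with folds of 171 and 96.6, beside Sp1 folds of 9.10 and 14.4 with antibodies 1 and 2. MAU2, the partner of NIPBL in loading, had CTCF folds of 78.4 and 45.2 at chr19:19342487-19343396, a site at an internal start and apart from its antibody 1 peak at chr19:19320463-19320848. A shared site anywhere in the window was found in 8 of 13 and 9 of 10 genes of these lists, beside 61.1% of all genes.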

How the data were processed

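Reads were trimmed (Cutadapt), mapped to hg38 (Bowtie2) and freed of duplicates (samtools) by the authors, who called peaks in each library separately with MACS. The submitters' processing notes name cutadapt 2.6, Bowtie2 2.4.5, SAMtools 1.15.1 and MACS2 2.2.7.1. The deposited lists give each peak's fold enrichment over control (a linear ratio), its −log10 q and the offset of its summit from the peak start, all made by the authors. The lowest −log10 q was 1.30 to 1.43 in the 5 lists, and peaks under such a limit are not seen. The 3 inputs enter no count, since no peak list of theirs was used here. All intervals lay within hg38 contigs, with 0 exceptions. Genes and starts came from GENCODE release 44 and promoter sequences of 300 bases from RefSeq (GRCh38.p14). Scripts used Python 3.11.15, numpy 2.4.6 and pysam 0.24.0. Overlap, window and motif steps were tested on simulated data. Wilson intervals cover counting error only, and no p-value was computed, because each Sp1 antibody and IgG had 1 library and CTCF had 2. CTCF replicates are labelled as replicates without a statement on separate cultures, so their spread may be technical. All 10 members were described; sites given with coordinates or sequence were the strongest promoter peak of each gene in each Sp1 list, its strongest CTCF promoter site and its CTCF site of highest mean log2 fold. STAG1's intron site and the words TCGCGAGA and CCGGAA were added after their values were seen. The members and lists were chosen with earlier results of these data known.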

Additional observations from a re-analysis of the deposited data

How the results depend on the processing

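Of 49 alternatives tried, 46 left their result close to its value. The limit for close was loose. A motif share inside its Wilson interval counted as close, as did a log2 ratio within the SD of the member sites. With starts within 500 bp in place of 1 kb, a shared CTCF promoter site was found in 3 of the 10 genes in place of 5, since the NIPBL and PDS5A summits lie farther away; within 2 kb it was 6, with protein-coding starts or the gene start alone 4. The gene start alone, canonical transcript windows and the refitted matrix were chosen after seeing the data. Promoter peaks of both Sp1 antibodies were in 2 genes, and leaving out one antibody gave 2 to 6. With the exact core in place of the matrix, 27.8% of shared member sites held the CTCF motif in place of 77.8%, since no core mismatch is then allowed. Leaving out a CTCF replicate gave 20 to 21 sites in place of 18, and a density of 1.11 to 1.17 per 100 kb in place of 1.00. Gene flanks of 0 kb and 10 kb gave 14 and 22 shared sites, which also counted as close. The density was then 0.83 and 1.16 per 100 kb. With 10 kb it was above the 1.12 over chromosomes 1 to 22 and X, and not below it. No paired analysis was possible because replicate numbers are shared by CTCF and input libraries alone, and the inputs have no peak list here. Peaks below the listing limit are not seen, so a gene without a peak is not shown to be unbound.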
